A study of Mus musculus with 16 samples.

Results

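The promoters of the mouse ribosomal protein genes were examined for 5 histone marks in ER-Hoxb8 cells, an immortalized line of granulocyte-monocyte progenitors. The set holds every gene in the deposited region tables whose symbol is Rpl or Rps followed by a digit, together with Rplp0, Rplp1, Rplp2 and Rpsa. It leaves out 9 S6 kinase symbols and 8 pseudogene symbols. This gave 85 of 17885 annotated genes, of which 46 encode proteins of the large subunit, 31 encode proteins of the small subunit and 8 are paralogs or look-alike symbols (Rpl10l, Rpl22l1, Rpl36al, Rpl3l, Rpl7l1, Rps19bp1, Rps27l and Rps27rt). The symbol Rpl39l had no row and was not analysed here.

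The cytosolic ribosome is built from ribosomal RNA and a set of proteins that the cell needs in near-equal amounts, so their genes are transcribed at high rates in dividing cells. Most of these genes start at a run of pyrimidines known as the terminal oligopyrimidine (TOP) motif, through which mTOR signalling controls translation of their mRNAs. H3K4me3, H3K27ac and H3K9ac mark active promoters, H3K4me1 flanks promoters and marks enhancers, and H3K27me3 is the mark of Polycomb repression.

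All 3 lines were C57BL/6-derived ER-Hoxb8 cells kept immature by an estrogen-dependent Hoxb8, grown with SCF and beta-estradiol. P199L-ERG cells stably expressed human ERG with a single amino acid changed, WT-ERG cells stably expressed unchanged human ERG, and empty vector cells carried the vector alone. ERG is a transcription factor of the ETS family that acts in blood stem cells, and the study asked how WT-ERG and P199L-ERG alter histone marks. Human ERG stood under the human PGK promoter in the vector of the study, so its level is not that of the mouse gene, and each condition was a single transduced line. Each of the 5 marks had 1 library in each of the 3 lines. The 15 libraries thus give no replicate check. No test between lines was made, and the intervals given with log2 ratios are 95% intervals by the Clopper-Pearson method, computed from read counts, which cover counting error only. A lower value cannot be told apart from fewer cells carrying the mark.

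Reads in the merged regions numbered between 10268618 and 22278560 per library for H3K27ac, H3K9ac, H3K4me3 and H3K4me1, and between 768125 and 980145 for H3K27me3. All 10 granulocyte-monocyte progenitor markers, including Mpo and Elane, had promoter regions of H3K27ac and H3K4me3. Of the other cell types, erythroid markers had promoter regions of H3K27ac in 3 of 3, B cell markers in 2 of 3, T cell and fibroblast markers in 1 of 3 each, and hepatocyte markers in 1 of 2. Values below are the authors' normalized reads, which are read counts times a constant of each library. A promoter value is their sum over the regions that were assigned to a gene and lie within 5000 bp of its start.

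The promoter sequences of 65 ribosomal protein genes were taken from RefSeq on GRCm38, the assembly that mm10 names. Each window held 250 bases before and 50 bases from the annotated start. Some genes had several annotated starts and so several windows, and a gene was counted if any of its windows matched. The letters CCGGAAG hold the GGAA core read by ETS factors. They occurred on either strand in 25 of these 65 genes (38.5%), against 9.93% of 27025 genes with a promoter entry. Among genes with an H3K4me3 region over the start, the shares were 40.7% of 59 ribosomal protein genes and 21.7% of 8463 other genes. A TOP, searched as C followed by 4 pyrimidines on the transcript strand, began exactly at the annotated start in 14 of the 65 (21.5%), against 3.01% of all genes, and within 5 bases of it in 30 (46.2%), against 21.2%. The promoters below were chosen after their values were seen. They belong to genes whose H3K9ac regions, described next, stop short of the start, and each window runs from 100 bases before the RefSeq start through the first 20 bases of the transcript. Capitals mark CCGGAAG, or CTTCCGG where it lies on the other strand, and the TOP.
Rps7 (chr12:28635934-28636053, minus strand): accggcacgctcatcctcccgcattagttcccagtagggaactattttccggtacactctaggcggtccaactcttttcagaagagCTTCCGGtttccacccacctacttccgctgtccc
Rps21 (chr2:180257279-180257398, plus strand): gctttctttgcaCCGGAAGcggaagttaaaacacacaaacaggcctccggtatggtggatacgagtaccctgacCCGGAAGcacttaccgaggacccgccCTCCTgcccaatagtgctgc
Rps18 (chr17:33955646-33955765, minus strand): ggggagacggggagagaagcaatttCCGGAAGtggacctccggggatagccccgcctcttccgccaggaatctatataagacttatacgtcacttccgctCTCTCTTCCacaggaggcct
Rps6 (chr4:86857348-86857467, minus strand): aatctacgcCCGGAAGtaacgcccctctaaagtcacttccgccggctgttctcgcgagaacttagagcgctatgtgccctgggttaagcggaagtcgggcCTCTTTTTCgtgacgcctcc
Rpl37 (chr15:5116513-5116632, plus strand): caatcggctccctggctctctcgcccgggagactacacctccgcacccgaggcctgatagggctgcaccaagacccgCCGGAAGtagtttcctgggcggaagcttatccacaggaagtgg
Rps3a1 (chr3:86142649-86142768, minus strand): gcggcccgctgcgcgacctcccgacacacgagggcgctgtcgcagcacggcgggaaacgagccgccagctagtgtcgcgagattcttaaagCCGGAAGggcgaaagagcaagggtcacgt

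Other motifs were searched in the same windows. AAGATGG, a core of the YY1 motif, occurred on either strand in 10 of 65 ribosomal protein genes (15.4%), against 7.28% of all genes. GGGCGG, the Sp1 core, occurred in 41 (63.1%), against 38.2% of all genes. Among genes with an H3K4me3 region over the start the order for GGGCGG turned round, with 62.7% of ribosomal protein genes and 71.3% of other genes. TATAAA on the transcript strand occurred in 6 of 65 (9.23%), against 9.77% of all genes. When an H3K4me3 region over the start was required, TATAAA occurred in 10.17% of 59 ribosomal protein genes and 4.54% of 8463 other genes. A motif was counted once per gene, so genes with several windows had more places to match. A match says only that the letters are present.

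Nearly every ribosomal protein gene carried the active promoter marks. Promoter regions of H3K27ac were assigned to 83 of the 85 genes, of H3K9ac to 83, of H3K4me3 to 82, of H3K4me1 to 78 and of H3K27me3 to 4. These are 97.6%, 97.6%, 96.5%, 91.8% and 4.71% of the set, against 66.7%, 65.5%, 68.2%, 80.7% and 19.1% of all 17885 genes. The testis-expressed paralog Rpl10l had no promoter region of H3K27ac or H3K4me3, and the look-alike Rps27rt had none of H3K27ac. Rpl18 and Rplp0, the base of the ribosomal stalk, also had no assigned H3K4me3 region, but a region of that mark lay over each start and had been assigned to a neighbour. Over the start of Rplp0 it held 1213 normalized reads in P199L-ERG, 1606 in WT-ERG and 1752 in empty vector cells. Regions were shared with a second gene at 31 of the 83 H3K27ac promoters and at 25 of the 82 H3K4me3 promoters, so those values are not of the ribosomal protein gene alone.

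H3K27me3 regions were few and lay away from the starts. The 4 genes with a region within 5000 bp were Rpl17, Rpl19, Rps26 and Rps27rt, and 0 had a region within 1000 bp, a distance chosen after seeing the data. At Rps27rt the counts were 153 reads in P199L-ERG, 222 in WT-ERG and 231 in empty vector cells. The normalized reads there were 169, 185 and 203 in the same lines. At Rpl17 the counts were 6, 11 and 6 reads, which cannot show a difference at this depth.

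The regions of these genes were often interrupted at the start. Starts and strands were recovered from the deposited distances between regions and genes, and 79 ribosomal protein genes had an H3K4me3 region over the start, against 10763 other genes. An H3K9ac region covered the start in 41 of the 79 (51.9%), against 83.7% of the other genes. The contrast varied with position. At -50 bp the shares were 48.1% and 71.6%, and at -100 bp 60.8% and 67.4%, positions chosen after the profiles were seen. At 35 of the 79 (44.3%), H3K9ac regions lay within 1000 bp on both sides of an uncovered start, against 8.95% of other genes. How far these shares depend on the placing of the start was not tested. The median uncovered stretch was 157 bp, with quartiles of 120 and 195 bp, and 149 bp at the other genes with such a stretch. Regions were merged over the 3 lines, so these shapes are not resolved by line.

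The uncovered stretch was seen in both subunits. It occurred at 19 of 45 large subunit genes and at 15 of 29 small subunit genes. It spanned from 66 bp at Rps7 to 741 bp at the zinc-binding Rps29. At Rps7 it ran between -15 and 52 bp from the start, at Rps21 between -139 and 2 bp, at Rps18 between -57 and 54 bp and at Rps6, the target of S6 kinase, between -26 and 94 bp. The same pattern occurred at 7 of 35 translation factor genes, 17.9% of ribosome assembly genes, 15.8% of proteasome genes and 8.97% of mitochondrial ribosome genes. Of the 35 ribosomal protein genes with an uncovered start, 25 had a promoter entry, 12 of these held CCGGAAG, and at 10 the letters fell inside the uncovered stretch. Of 963 other genes with such a start, 776 had an entry, 171 held CCGGAAG and 100 held it inside the stretch. How often letters would fall there without regard to the stretch was not tested. Rps7, Rps21, Rps18, Rpl37 and Rps3a1, printed above, were among the 10, whereas the site of Rps6 lay outside. The stretches count from the recovered starts, not from the RefSeq starts of the printed windows. The RefSeq start lies 51 bp downstream at Rps18, 45 bp at Rps6 and 34 bp at Rps3a1. Counted from the recovered start, the middle of the printed site lies at -21 bp at Rps18 and at -43 bp at Rps6.

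H3K27ac showed this pattern at fewer genes. It covered the start in 75 of the 79 ribosomal protein genes (94.9%), against 90.0% of the others. An uncovered start with H3K27ac on both sides was seen at 4 of the 79 (5.06%), against 1.92% of other genes. Rpl36a, Rps12 and Rps4x were among them, each flanked on both sides with 69 to 108 bp uncovered. H3K4me1 regions were missing over a wider span. They covered the start in 13 of the 79 (16.5%), against 52.5% of other genes, and 500 bp downstream in 17.7%, against 54.0%. Low cover of the start by H3K4me1 was shared by the other lists, with 21.8% of mitochondrial ribosome, 28.2% of ribosome assembly, 28.6% of translation factor and 31.6% of proteasome genes. At 2000 bp downstream this order was the opposite, with 87.3% of ribosomal protein genes and 61.1% of other genes.

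**Figure D1:**
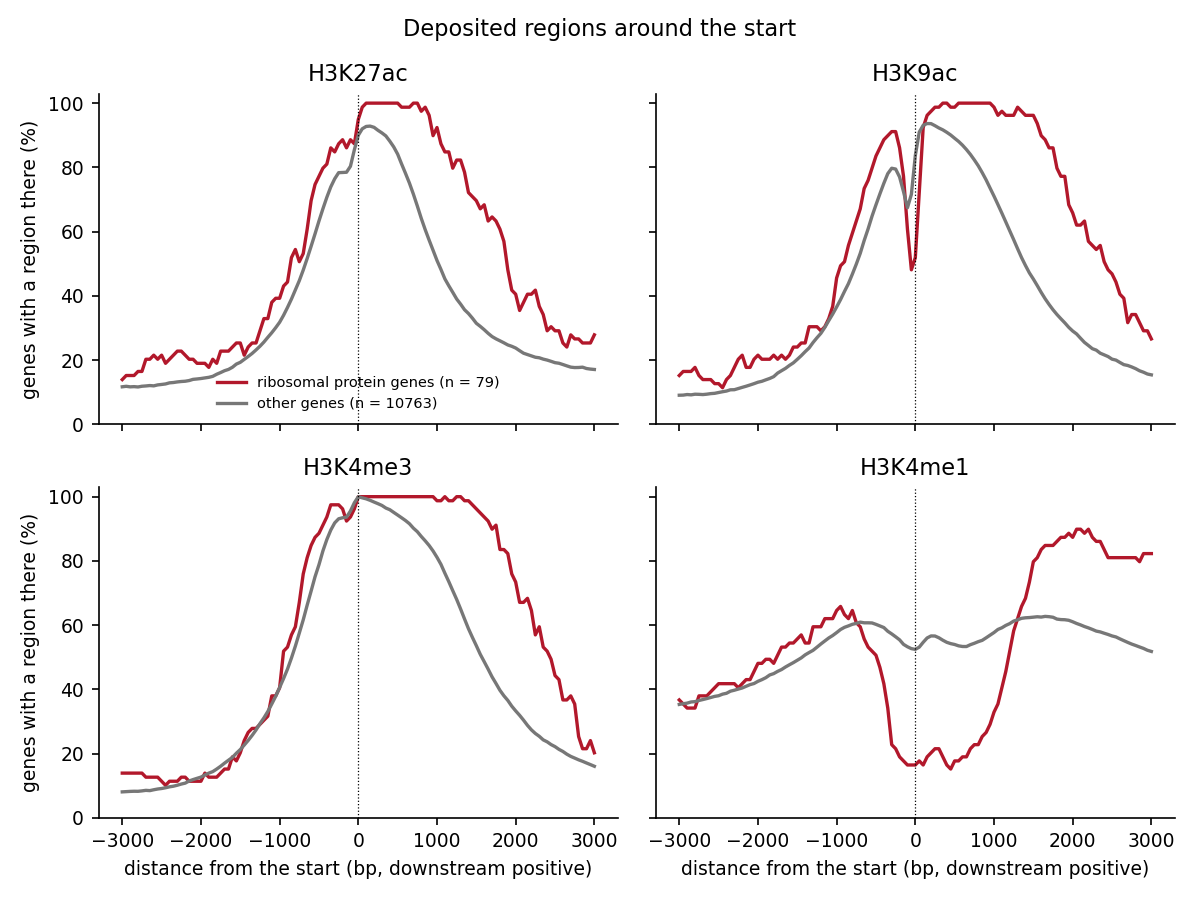
Share of genes (vertical axis, %) with a deposited region at each distance from the start (horizontal axis, bp, downstream positive) for H3K27ac, H3K9ac, H3K4me3 and H3K4me1, among genes with an H3K4me3 region over the start; red, 79 ribosomal protein genes; grey, 10763 other genes. At the start the H3K9ac line stands at 51.9% for ribosomal protein genes and 83.7% for the others, and the H3K4me1 line at 16.5% and 52.5%. Both H3K9ac lines dip just upstream, to 48.1% at -50 bp for ribosomal protein genes and 67.4% at -100 bp for the others.

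The active marks also reached further into the ribosomal protein genes. At 1000 bp downstream of the start, H3K27ac regions covered 92.4% of ribosomal protein genes and 51.0% of other genes, and H3K4me3 regions 98.7% and 81.1%. The H3K27ac region lying 250 bp downstream ended at a median of 1401 bp in ribosomal protein genes, against 977 bp in the others. The corresponding H3K9ac edge lay at 2078 bp, against 1348 bp, and the H3K4me3 edge at 2302 bp, against 1537 bp. Translation factor genes had edges close to these at 1378, 1885 and 2070 bp, whereas mitochondrial ribosome genes had 829, 1216 and 1423 bp. The farthest H3K4me3 edge was at Rps18, 6119 bp downstream. The distances 250, 500, 1000 and 2000 bp were chosen after the profiles were seen, and depth, mappability and peak splitting by the caller were not tested as sources of these shapes.

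Per kilobase of promoter region, ribosomal protein genes stood somewhat above the middle of all genes. Their median H3K27ac level was 241 normalized reads per kb in P199L-ERG, 357 in WT-ERG and 408 in empty vector cells, and the median of all genes was 214, 324 and 358 in the same lines. For H3K4me3 the median of ribosomal protein genes was 556, 661 and 657 normalized reads per kb, and that of all genes 507, 603 and 614. In empty vector cells 56 of 83 ribosomal protein genes lay above the all-gene median of H3K27ac. The order of the genes was kept between WT-ERG and empty vector cells, with a Spearman correlation of H3K27ac level over the 83 genes of 0.95, and less so between P199L-ERG and empty vector cells, with 0.73. For H3K9ac these correlations were 0.95 and 0.95, and for H3K4me3 0.96 and 0.90 over 82 genes. These points share a library on each axis.

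**Figure D2:**
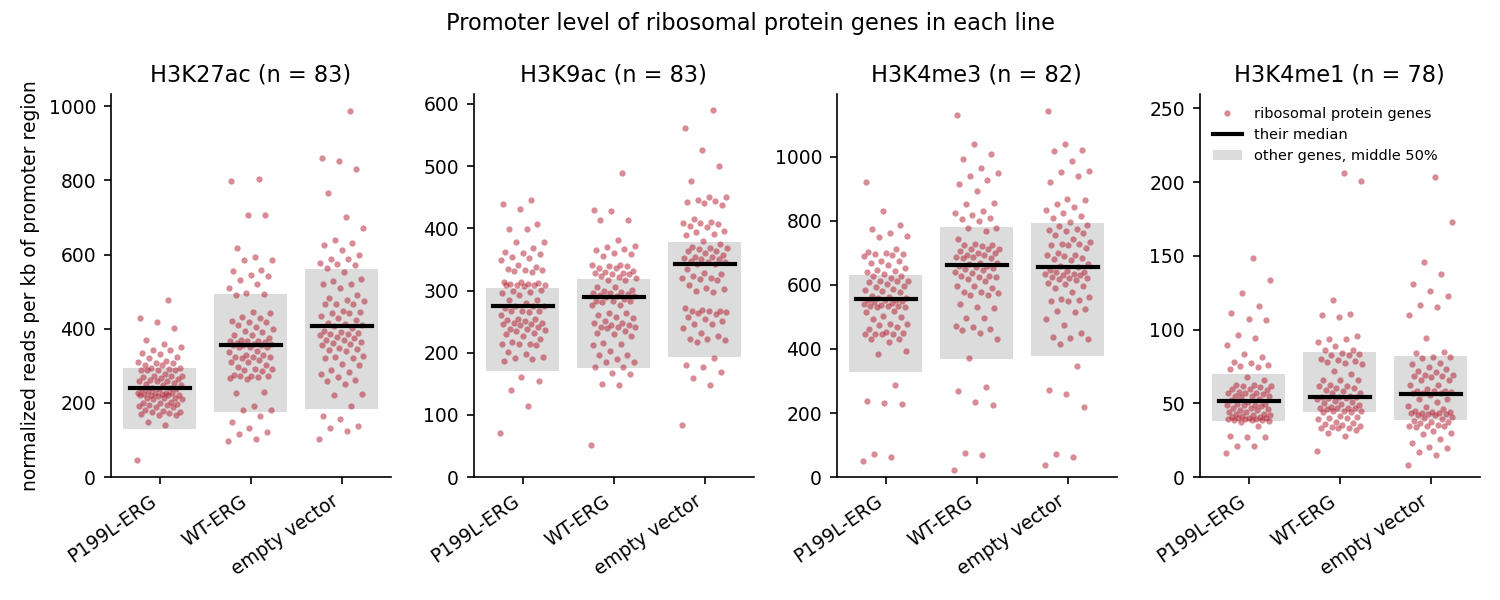
Promoter level in normalized reads per kb of region (vertical axis) of each ribosomal protein gene (red points) in P199L-ERG, WT-ERG and empty vector cells, 1 library each, for 4 marks; black bars are medians and grey boxes span the middle 50% of other genes. The H3K27ac medians are 241 in P199L-ERG, 357 in WT-ERG and 408 in empty vector cells, and the H3K27ac points spread least in P199L-ERG, where the highest gene is at 478 normalized reads per kb, against 804 in WT-ERG and 988 in empty vector cells.

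The highest H3K27ac levels in empty vector cells belonged to a pair of paralogs and a small subunit gene. Rpl36al, a paralog of the large subunit gene Rpl36a, held 430 normalized reads per kb in P199L-ERG, 800 in WT-ERG and 988 in empty vector cells. Rpl22l1, the paralog of the RNA-binding large subunit gene Rpl22, held 359, 586 and 861 normalized reads per kb in the same lines, and Rps25 held 478, 804 and 852. These levels ran in the same order of lines as the medians of all genes. Lowest were Rpl18 with 46.1, 102.6 and 102.6 normalized reads per kb, Rps4x with 142, 116 and 123, and Rpl10, whose protein joins the large subunit late in its assembly, with 150, 98.4 and 134. For H3K4me3 the highest were Rps2 with 832, 1130 and 1141 normalized reads per kb, Rpl31 with 754, 1009 and 1040, and Rpl10a with 773, 1040 and 1019. The lowest H3K4me3 values, at Rps18, Rpl41 and Rpl12, came from short assigned regions of 0.24, 0.21 and 0.27 kb. Rpl41 had no H3K4me3 region over its start, while at Rpl12 and Rps18 that region had been assigned elsewhere. At Rps18 it held 5995 normalized reads in P199L-ERG, 7090 in WT-ERG and 7276 in empty vector cells.

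WT-ERG against empty vector gave small differences in H3K27ac at ribosomal protein genes. The median log2 ratio was -0.19 over 83 genes, against -0.15 over all 11937 genes with a promoter region. A decrease of 1.5-fold was seen at 1 gene, Rps20, which encodes a protein of the small subunit head, where 4.16% of all genes were lower and 4.56% higher. Rps20 held 239 normalized reads per kb in P199L-ERG, 391 in WT-ERG and 625 in empty vector cells, and its log2 ratio of WT-ERG to empty vector was -0.68 (95% interval -0.84 to -0.52). After adjustment for GC content, described below, it was -0.54 and no longer reached 1.5-fold. Among the 62 genes whose summed promoter value reached the 25th percentile of the set, which leaves out Rps20, Rpl22l1 and Rpl41, the largest decrease was at Rpsa, the laminin receptor precursor and a small subunit protein, with a log2 ratio of -0.53 (-0.64 to -0.43). Rpl37a followed with -0.51 and Rps15a with -0.47. At the other end stood Rpl11, a 5S RNA partner that binds Mdm2 when free, with 0.04, Rpl13 with 0.03 and Rpl7a with 0.03, all near no difference.

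P199L-ERG against empty vector gave lower H3K27ac normalized reads at most ribosomal protein genes and at most genes with an H3K27ac promoter region alike. A decrease of 1.5-fold was seen at 59 of 83 ribosomal protein genes and an increase at 0, against 67.1% lower and 3.91% higher over all genes. The median log2 ratio was -0.74, against -0.84 over all genes. By subunit, 34 of 46 large subunit genes, 21 of 31 small subunit genes and 4 of 6 paralogs or look-alikes were lower. Of the other lists, translation factor genes had 34 of 38 lower, mitochondrial ribosome genes 51 of 78 and proteasome genes 27 of 38. At a 2-fold threshold, 17 ribosomal protein genes were lower, against 37.8% of all genes. When each library was scaled to its total reads in regions, 16 ribosomal protein genes were lower and 4 higher, with a median of -0.31, against 37% lower, 8.21% higher and a median of -0.42 over all genes.

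Large decreases were seen in both subunits. Rpsa held 224 normalized reads per kb of H3K27ac in P199L-ERG, 367 in WT-ERG and 530 in empty vector cells, a log2 ratio of P199L-ERG to empty vector of -1.24 (-1.36 to -1.12). The large subunit gene Rpl19 held 261, 494 and 613 in the same lines, a ratio of -1.23 (-1.35 to -1.11). In both genes WT-ERG lay between P199L-ERG and empty vector cells. Rps20 and Rpl22l1, with fewer summed reads, had ratios of -1.38 and -1.26. Genes with known roles in human disease had decreases of differing size. Rps19, the gene most often mutated in Diamond-Blackfan anaemia, held 273 normalized reads per kb in P199L-ERG, 429 in WT-ERG and 520 in empty vector cells, a ratio of -0.93. Rps14, which is lost in the 5q- syndrome, had a ratio of -0.93 as well, the 5S RNA partners Rpl5 and Rpl11 had -1.19 and -0.61, and Rps6 had -1.19. Rpl22 had -0.88, Rps27l, a p53-induced paralog of Rps27, had -1.16, and Rplp0 had -1.22.

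A few genes went the other way. Rpl36a held 195 normalized reads per kb of H3K27ac in P199L-ERG, 122 in WT-ERG and 137 in empty vector cells, a log2 ratio of 0.50 (0.37 to 0.64) against empty vector. Rpl3, whose protein lies near the peptidyl transferase centre, held 213, 132 and 158 normalized reads per kb, a ratio of 0.43 (0.27 to 0.60). Both are highest in P199L-ERG, and neither reached 1.5-fold against empty vector. Rpl3l, the muscle paralog of Rpl3, had -0.25, but no region of H3K27ac, H3K9ac or H3K4me3 lay over its start. The ratios of Rps9 and the ubiquitin fusion gene Rps27a were -0.04 and -0.15.

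P199L-ERG against WT-ERG gave a like picture. H3K27ac was lower by 1.5-fold at 46 and higher at 3 of the 83 ribosomal protein genes, against 62.2% lower and 4.15% higher over all genes, and the median log2 ratio was -0.62, against -0.73. The 3 higher genes were Rpl3 with 0.69 (0.53 to 0.87), Rpl36a with 0.67 (0.53 to 0.80) and Rpl10 with 0.60 (0.42 to 0.79). Rpl5 and Rplp0 had large decreases with -0.99 each, and Rpl18, below the 25th percentile of summed reads, had -1.14. Scaled to total reads, 8 were lower and 6 higher, against 34.8% and 6.89% of all genes, and at 2-fold 2 were lower, against 26% of all genes. The comparisons share libraries, so their values are not independent of each other.

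**Figure D3:**
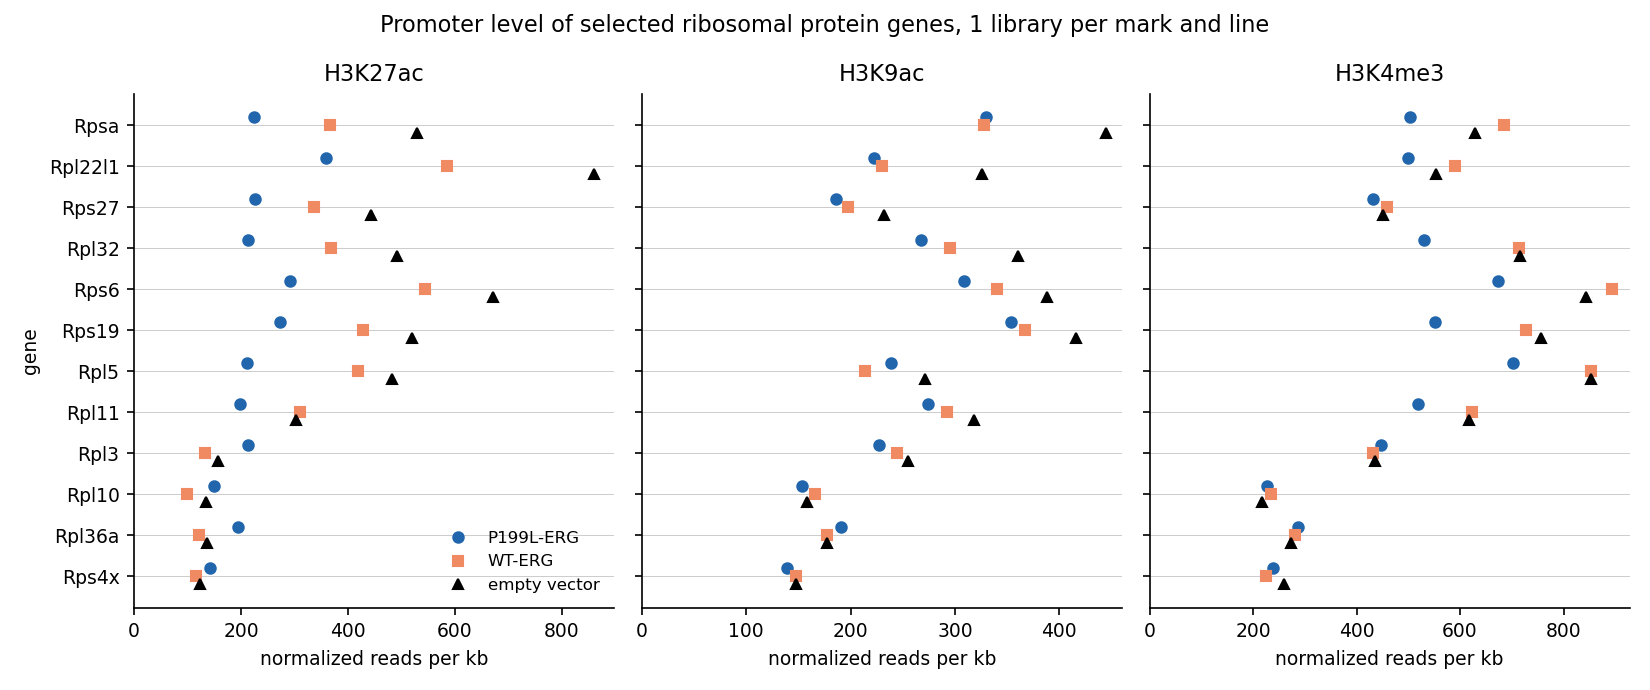
Promoter level in normalized reads per kb (horizontal axis) of 12 ribosomal protein genes (rows) in P199L-ERG (blue circles), WT-ERG (orange squares) and empty vector cells (black triangles), 1 library each, for H3K27ac, H3K9ac and H3K4me3; Rps27 and Rpl32 were added after their values were seen. H3K27ac runs lowest in P199L-ERG and highest in empty vector cells at Rpsa (224, 367 and 530 in P199L-ERG, WT-ERG and empty vector cells), while Rpl36a is highest in P199L-ERG (195, 122 and 137).

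These H3K27ac differences moved with the GC content of the promoter regions. Over the 83 ribosomal protein genes, the Spearman correlation of the log2 ratio of P199L-ERG to empty vector with GC content was -0.67, and over the other genes it was -0.62. For P199L-ERG against WT-ERG it was -0.69 over ribosomal protein genes and -0.79 over other genes, and for WT-ERG against empty vector 0.10 and 0.14. The promoter regions of ribosomal protein genes had a median GC content of 52.3%, against 55.2% for all genes. Several genes with ratios near or above 0 had low GC content, such as Rps27a with 45.5%, Rps9 with 46.1%, Rpl10 with 47.4% and Rpl36a with 48.9%, but Rpl23a, with a ratio of -0.68, also had 47.1%. Rpl19, with one of the larger decreases, had 58.3%. The part of GC content in these differences was not tested beyond the adjustment given next.

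**Figure D4:**
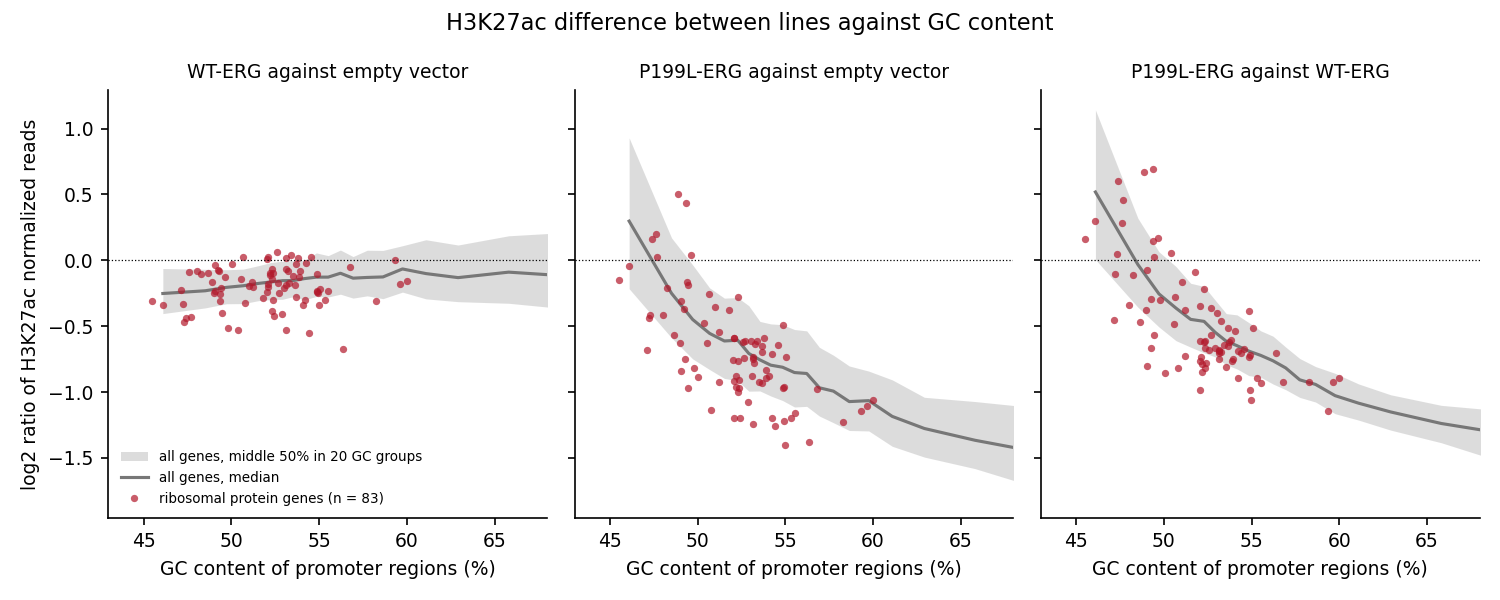
Log2 ratio of H3K27ac normalized reads (vertical axis) against GC content of the promoter regions (horizontal axis, %) for 83 ribosomal protein genes (red points) in the 3 pairs of lines; the grey line and band are the median and middle 50% of all genes in 20 GC groups. Both P199L-ERG ratios fall with GC content (Spearman -0.67 against empty vector and -0.69 against WT-ERG over the red points), and the WT-ERG ratio does not (0.10).

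Region values of each library were therefore also centred within groups of like GC content and like level before ratios were taken. The groups held all regions, so a shift over promoters as a whole can remain. The adjusted median of P199L-ERG against empty vector was -0.24 over ribosomal protein genes and -0.10 over all genes, and 14 of 83 were lower by 1.5-fold and 0 higher, against 11.6% and 5.95%. Genes of the other lists had adjusted medians of like size, -0.27 for translation factors, -0.30 for the mitochondrial ribosome, -0.26 for the proteasome and -0.21 for ribosome assembly. Lower both as deposited and after adjustment were 10 genes, Rpl17, Rpl22l1, Rpl23a, Rpl32, Rpl37a, Rps13, Rps23, Rps27, Rps29 and Rpsa, against 10.1% of all genes, which is close to their share of the 83. For P199L-ERG against WT-ERG the adjusted median was -0.15, against -0.04 over all genes, with 7 lower and 0 higher, against 5.03% and 2.73%, and the 3 genes lower in both versions were Rpl17, Rps13 and Rps23, against 3.37% of all genes, again a like share. The 3 genes that were higher as deposited were no longer called, with 0.33 at Rpl3, 0.40 at Rpl36a and 0.03 at Rpl10.

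Rps27, a zinc-binding small subunit protein that was named after its value was seen, had the lowest adjusted ratio. It held 227 normalized reads per kb of H3K27ac in P199L-ERG, 337 in WT-ERG and 444 in empty vector cells, with a log2 ratio of P199L-ERG to empty vector of -0.97 (-1.14 to -0.80) as deposited and -1.09 adjusted at a GC content of 49.5%. Rpl23a, at the exit of the nascent chain tunnel, had -0.99 adjusted. In contrast, the adjusted ratio of Rpl19 was -0.34, so this gene was lower by 1.5-fold as deposited and not after adjustment. Genes with and without CCGGAAG in the promoter had near-equal H3K27ac ratios of P199L-ERG to empty vector. The 25 genes with it had a median of -0.76 (-0.22 adjusted) and the 38 without it -0.69 (-0.26 adjusted). For WT-ERG against empty vector these medians were -0.17 and -0.19.

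**Figure D5:**
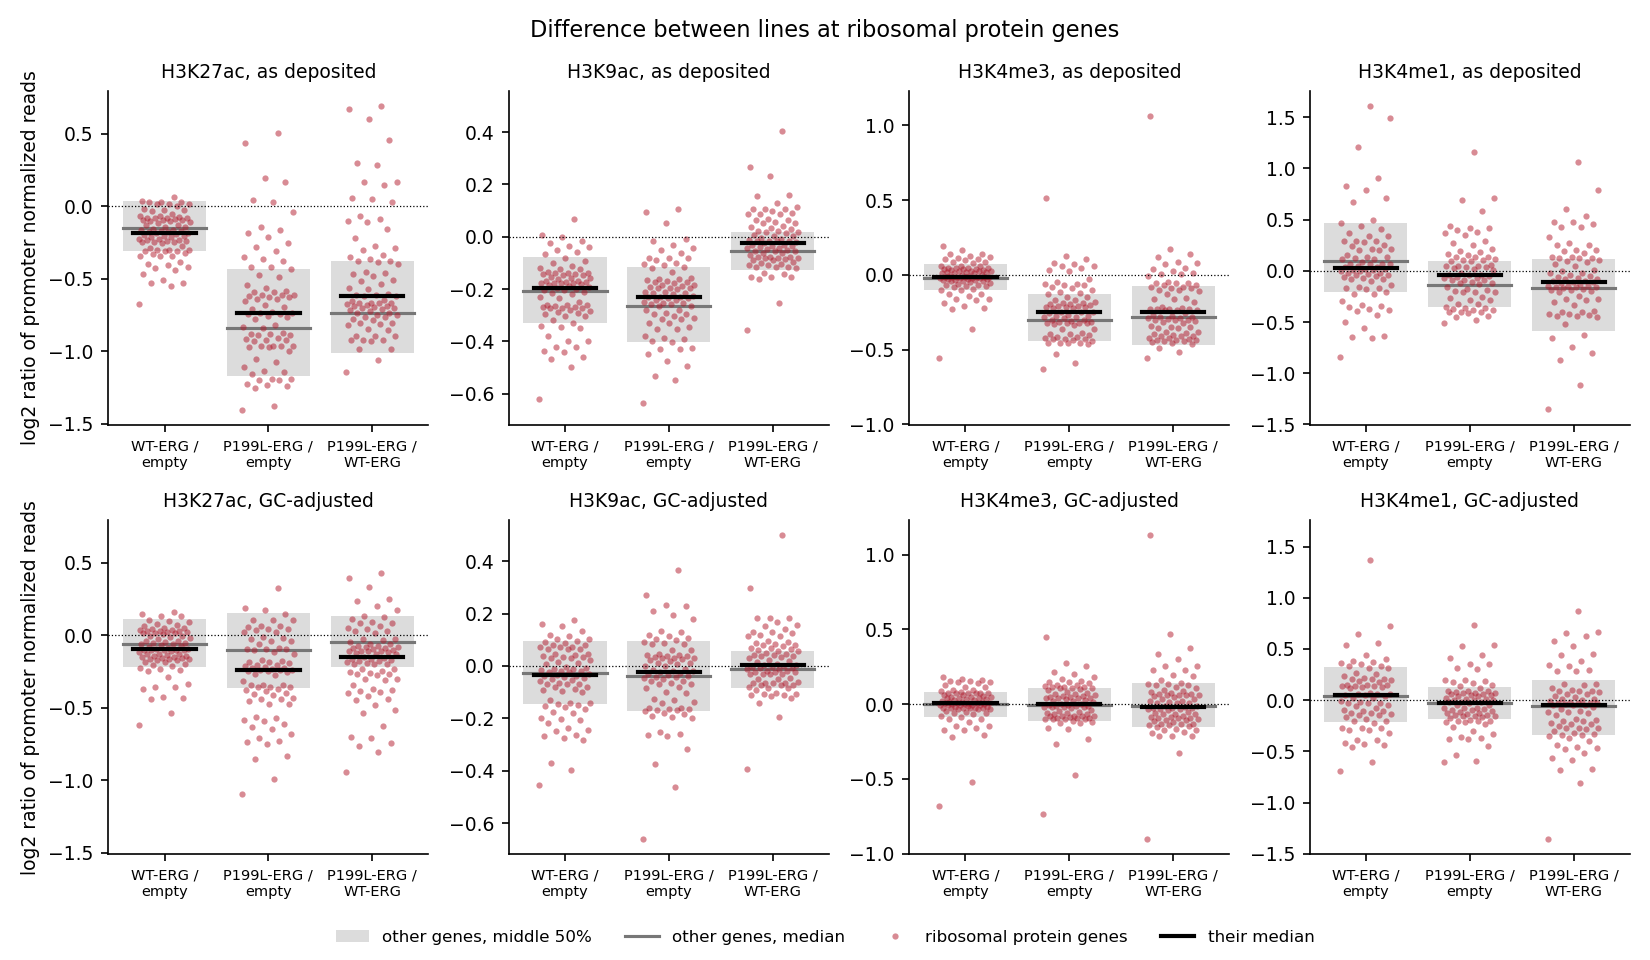
Log2 ratios of promoter normalized reads (vertical axis) for the 3 pairs of lines and 4 marks, as deposited (top row) and GC-adjusted (bottom row); red points are ribosomal protein genes, black bars their median, grey lines and boxes the median and middle 50% of other genes. The H3K27ac median of P199L-ERG against empty vector is -0.74 in the top row and -0.24 in the bottom row.

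H3K9ac differed less than H3K27ac between P199L-ERG and the other lines, and about as much between WT-ERG and empty vector. The median log2 ratio over 83 ribosomal protein genes was -0.20 for WT-ERG against empty vector, -0.23 for P199L-ERG against empty vector and -0.02 for P199L-ERG against WT-ERG, and over all genes it was -0.21, -0.26 and -0.05. Scaling to total reads or adjusting for GC content brought the first and the second to between -0.04 and -0.02 and turned the third to 0.01 and 0.00. A 1.5-fold decrease was seen at 1 gene in WT-ERG against empty vector, Rps27rt, where 4.15% of all genes were lower. It was seen at 1 gene in P199L-ERG against empty vector, where 7.04% were lower, and at 0 in P199L-ERG against WT-ERG, where 1.25% were. No ribosomal protein gene was higher by 1.5-fold in any pair, where 1.98%, 1.67% and 0.649% of all genes were.

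For WT-ERG against empty vector the largest H3K9ac decreases among genes reaching the 25th percentile of summed reads were Rpl28 with -0.46, Rpsa with -0.44 and Rps23 with -0.42. For P199L-ERG against empty vector they included Rps27l with -0.50 and Rpsa with -0.43. Rpl36a was highest in that pair with 0.10. Between P199L-ERG and WT-ERG the ratios were -0.16 at Rps10 and 0.13 at Rpl3l, which had no H3K9ac region over its start.

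H3K4me3 was lower in P199L-ERG than in both other lines, as it was over all genes. The median log2 ratio over 82 ribosomal protein genes was -0.25 for P199L-ERG against empty vector, -0.25 for P199L-ERG against WT-ERG and -0.01 for WT-ERG against empty vector, and over all genes it was -0.30, -0.28 and -0.02. After GC adjustment the P199L-ERG medians were 0.00 and -0.02, and with libraries scaled to total reads they were 0.01 and 0.00, so the direction rests on the deposited scale. A 1.5-fold decrease was seen at 2 genes, Rpl13a and Rps27rt, in P199L-ERG against empty vector, where 9.31% of all genes were lower. Neither call is of a region over the start. Rps27rt had no H3K4me3 region there, and that of Rpl13a, assigned to a neighbour, had a log2 ratio of -0.20, against -0.63 for its assigned region. In P199L-ERG against WT-ERG it was seen at 0 genes, where 14.3% were, and in WT-ERG against empty vector at 0, where 1.3% were. An increase was seen at 1 gene, Rps18 in P199L-ERG against WT-ERG, where 2.49% of all genes were higher, and at 0 in both pairs against empty vector, where 2.68% were for P199L-ERG and 2.8% for WT-ERG. It rests on the short region described above, with 63.2 normalized reads per kb in P199L-ERG, 20.9 in WT-ERG and 39.0 in empty vector cells, and its log2 ratio of 1.07 had an interval of 0.08 to 3.40.

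Rpl31, at the exit tunnel of the large subunit, held 754 normalized reads per kb of H3K4me3 in P199L-ERG, 1009 in WT-ERG and 1040 in empty vector cells, a log2 ratio of P199L-ERG to empty vector of -0.46. Rps15 also had -0.46 in that pair, and against WT-ERG Rpl7 had -0.52 and Rpl22 -0.46. Rps12 and Rpl4 had 0.11 and 0.08 against empty vector, and Rpl4 had 0.17 against WT-ERG. In WT-ERG against empty vector the ratios of genes reaching the 25th percentile of summed reads ran from -0.23 at Rpl3l to 0.17 at Rpl14. The value of Rpl3l is not of a region over its start, where H3K4me3 had none.

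H3K4me1 had few reads at these promoters, with a median of 188 reads per gene in the empty vector library, so single genes were less certain. All genes were alike in this, with a median of 55.5 normalized reads per kb in that library, against 56.3 for ribosomal protein genes. The median log2 ratio over 78 ribosomal protein genes was 0.03 for WT-ERG against empty vector, -0.04 for P199L-ERG against empty vector and -0.10 for P199L-ERG against WT-ERG, and over all genes it was 0.09, -0.13 and -0.17. WT-ERG was lower than empty vector by 1.5-fold at 4 genes and higher at 8, against 5.79% and 19.2% of all genes. P199L-ERG was lower than empty vector at 0 genes and higher at 4, against 9.24% and 3.56%, and lower than WT-ERG at 7 and higher at 3, against 24.9% and 3.4%. Among the genes called both as deposited and after GC adjustment in WT-ERG against empty vector were Rpl34, which was lower, and Rpl27a and Rps27a, which were higher, where 3.67% of all genes were lower and 9.87% higher in both versions.

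The H3K4me1 genes named here were chosen after their values were seen. Rps27a held 21.3 normalized reads per kb in P199L-ERG, 29.97 in WT-ERG and 8.30 in empty vector cells, a log2 ratio of 1.61 (1.02 to 2.76) for WT-ERG and 1.16 (0.51 to 2.28) for P199L-ERG against empty vector. Rpl34 held 81.6 normalized reads per kb in P199L-ERG, 46.1 in WT-ERG and 84.4 in empty vector cells, a ratio of -0.84 (-1.28 to -0.48) for WT-ERG against empty vector. WT-ERG thus stood apart from both other lines at Rpl34, and empty vector stood apart at Rps27a.

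The 4 ribosomal protein genes on the X chromosome, Rpl10, Rpl36a, Rpl39 and Rps4x, were grouped after their values were seen. They had lower levels than the autosomal ones in every line. Their H3K27ac level lay between 142 and 195 normalized reads per kb in P199L-ERG, between 98.4 and 150 in WT-ERG and between 123 and 164 in empty vector cells, while the medians of the autosomal genes were 249, 359 and 414. H3K4me3 medians were 263, 258 and 267 normalized reads per kb on X and 561, 668 and 672 on autosomes. Other X-linked genes also had lower levels, with H3K4me3 medians of 296 normalized reads per kb in P199L-ERG, 317 in WT-ERG and 338 in empty vector cells. Other autosomal genes had 513, 611 and 621. For H3K27ac, other X-linked genes had medians of 167, 243 and 261, and other autosomal genes 216, 327 and 360. The 4 ribosomal protein genes, with 159, 119 and 135, lay below other X-linked genes, least so in P199L-ERG. Their median H3K27ac log2 ratio of P199L-ERG to empty vector was 0.18, against -0.68 at other X-linked genes, and -0.08 against -0.11 after GC adjustment. The number of X copies and the mappability of the 4, which have processed copies elsewhere, were not tested. Their H3K27ac log2 ratios of P199L-ERG to empty vector were 0.16 at Rpl10, 0.50 at Rpl36a, 0.04 at Rpl39 and 0.20 at Rps4x, and -0.22, 0.33, 0.06 and -0.34 after GC adjustment.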

How the data were processed

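Members and gene lists were chosen with earlier results of these data known. Per the study's methods, reads were cleaned of adapters (Cutadapt) and mapped to mm10 by bowtie, keeping unique hits. MACS2 gave the peaks, and GREAT linked merged regions to genes. For every region the deposited tables give each library's read count, the authors' normalized signal and whether a peak was called, as 0 or 1. The signal equals the count times a constant of each library, whose basis is not given in the sources used here. Unique alignment can lose reads at genes with processed copies. The pooled IgG sample was not analysed here.

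Promoter values were summed over regions assigned to a gene within 5000 bp, and a pseudocount of 10% of the median region value (2.18 normalized reads for H3K27ac, 3.30 for H3K9ac, 4.27 for H3K4me3 and 4.29 for H3K4me1) preceded log2 ratios. A change means 1.5-fold. GC adjustment centred libraries within 20 GC groups crossed with 10 signal groups. It was tested on simulated data. Starts came from the deposited distances within 2 bp; of 65 genes with RefSeq promoters, all 65 matched in strand and 52 within 100 bp. Genes were named by the largest ratios in each pair among those reaching the 25th percentile of summed promoter reads, the highest and lowest levels in empty vector, a list of 16 genes and absence of a region. Some genes that fall under these rules are not reported here. Python 3.11.15, numpy 2.4.6, pandas 2.3.3 and scipy 1.17.1 were used.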

Additional observations from a re-analysis of the deposited data

How the results depend on the processing

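The medians over ribosomal protein genes were recomputed under 7 other choices. All 12 medians of the active marks and H3K4me1 stayed within their intervals with a pseudocount equal to the median region value. The same held with the highest single region per gene, and without the lowest 25% of genes. Each of these intervals is for a median over genes, and is not the counting interval given with single genes. It reflects the spread among genes and covers neither counting error nor differences between repeated libraries. With libraries scaled to total reads in regions, the H3K27ac medians were -0.075 for WT-ERG against empty vector, -0.31 for P199L-ERG against empty vector and -0.30 for P199L-ERG against WT-ERG, those of H3K9ac were -0.031, -0.031 and 0.0094, and those of H3K4me3 for P199L-ERG were 0.013 against empty vector and 0.0016 against WT-ERG. Adjusted for GC content, the same medians were -0.093, -0.24 and -0.15 for H3K27ac, -0.035, -0.022 and 0.0030 for H3K9ac, and 0.0021 and -0.016 for H3K4me3. The H3K27ac median of ribosomal protein genes minus that of all genes, in P199L-ERG against empty vector, was 0.10 as deposited, 0.11 scaled and -0.13 GC-adjusted. Within 1000 bp of the start the medians were -0.69 for H3K27ac in P199L-ERG against WT-ERG, and 0.24 and -0.18 for H3K4me1 in WT-ERG against empty vector and in P199L-ERG against WT-ERG. In the region over the start, an alternative chosen after seeing the data, they were -0.70 for H3K27ac in P199L-ERG against WT-ERG, and -0.049 and -0.32 over 14 genes for H3K4me1 in WT-ERG and in P199L-ERG against empty vector. H3K27me3 regions within 1000 bp were found at 0 genes, against 4 within 5000 bp. H3K27ac calls in P199L-ERG against empty vector numbered 59 as deposited, 20 scaled, 14 GC-adjusted and 17 at 2-fold, and against WT-ERG 49, 14, 7 and 2. The causes of these shifts were not tested. No paired analysis was possible because each line had 1 library per mark.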

Other observations

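Ribosomal protein genes were spread over 19 chromosomes, with 14 of 85 on chromosome 7, 8 each on chromosomes 9 and 17, and 7 on chromosome 11. Among pairs of marks, the GC-adjusted log2 ratios of P199L-ERG to empty vector had a Spearman correlation of 0.57 between H3K27ac and H3K9ac over 82 ribosomal protein genes and of 0.38 between H3K27ac and H3K4me3 over 81. For WT-ERG against empty vector these were 0.28 and -0.42. The points share the vector line and, in part, the same regions, so these values are descriptions.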
